A study of Rattus norvegicus with 2 samples.

Results

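A set of 9 genes tied to antigen presentation on MHC class I molecules was followed in IEC6, a line of rat small intestinal epithelial cells that is not transformed, given Na2S3 or water for 60 min. They are Tap1, Tap2, Tapbp, B2m, Bst2, Psmb8, Psmb9, Irf1 and Nlrc5, which make 9 of the 27235 named genes with a probe on the array. They are read by 12 of 45598 probes and 24 of 58717 spots. The genes were picked by name with the ratio between these same 2 arrays in view, Tap2 and Bst2 being known as low after Na2S3, so the ratios of these genes are a description and carry no test.

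The treated culture received Na2S3, sodium trisulfide, a donor of polysulfide sulfur, and the control culture received water, in each case for 60 min in DMEM with 0.1% FCS. The dose is not settled, since 100 µM is stated for the sample and in the design and 100 mM in the protocol. Each group is 1 dish culture on 1 single-colour Agilent array, with no replicate, and no source used here names a passage or clone. Differences between the arrays therefore include whatever varied between 2 dishes, 2 labellings and 2 hybridisations.

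Cells show fragments of their own proteins on MHC class I molecules at the surface. Proteasomes cut the proteins into peptides, and the immunoproteasome subunits Psmb8 and Psmb9 change which peptides are made. Tap1 and Tap2 form the transporter that carries peptides into the endoplasmic reticulum, tapasin (Tapbp) holds the empty class I molecule to that transporter, and B2m is the light chain of the finished complex. Irf1 and Nlrc5 are transcriptional activators of this set of genes, which interferons induce. Bst2 (tetherin) is not part of the loading machinery. It is an interferon-induced membrane protein that holds budding enveloped viruses at the cell surface.

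Of these genes 8 gave a signal well above background on both arrays. Tap2 and Bst2 were at least 2-fold lower in the Na2S3 culture, and none was at least 2-fold higher. Among all 13062 measured genes, 0.62% were at least 2-fold lower and 0.942% at least 2-fold higher. Since Tap2 and Bst2 entered the set for being low, nothing is read from their count. The other 6 measured genes lay within 1.5-fold of equal, as did 12229 of all measured genes, and Nlrc5 did not rise well above background in either culture. The median log2 ratio was -0.14 over the 8 measured genes and -0.04 over all measured genes. In a culture lysed as a whole, fewer cells expressing a gene and less RNA per cell cannot be told apart.

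Signals are the scanner's processed intensities, given spot by spot for the 9 genes and, for other genes with repeat spots, as the mean over the spots of a probe on the log2 scale. Log2 ratios, Na2S3 over water, were taken after each array was divided by its 75th percentile, which was 478 intensity units on the Na2S3 array and 413 on the water array, so equal raw signals give a ratio slightly below 0. With 1 array per group, the only error at hand is that between repeat spots of one probe. It was estimated from 1962 repeatedly spotted probes, as an SD of the log2 ratio that depended on signal. The SD was 0.33 below 64, 0.19 at 64 to 128, 0.16 at 128 to 256, 0.10 at 256 to 512, and 0.057 to 0.096 above 512. Repeat probes below 32 were pooled with those at 32 to 64, so 1 value serves both. This spot error covers spot-to-spot noise within an array and not the variation between cultures.

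Tap2 showed the lowest ratio of the set. Its transcript (NM_032056 in the array file) is read by 2 probes close to each other on the minus strand of chromosome 20, in the rn4 coordinates of the files. The probe at chr20:4770555-4770614, spotted at 2 positions, read 465 and 407 in the Na2S3 culture, against 1622 and 1637 in the water culture. Both Na2S3 spots were far below both water spots. The spots gave log2 ratios of -2.01 and -2.22, with a mean of -2.11 and an SD between the spots of 0.15, or 4.32-fold lower. The SD between spots expected at this signal was 0.082, which for a mean of 2 spots is a spot error of 0.058. The observed SD of 0.15 was larger than the expected one. Errors given for differences with Tap2 use the expected value and so are smaller than its own spots would give.

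The other Tap2 probe, at chr20:4770747-4770806, read 145 in the Na2S3 culture and 493 in the water culture from 1 spot. Its log2 ratio was -1.97 with a spot error of 0.10, or 3.91-fold lower, so both probes placed Tap2 near 4-fold lower in the Na2S3 culture. Its sequence, from the array file, is given with that of a Tap1 probe because the partner subunits of one transporter gave different ratios through these probes. The Tap1 probe lies at chr20:4793943-4794002 (rn4, minus strand).
Tap2 probe: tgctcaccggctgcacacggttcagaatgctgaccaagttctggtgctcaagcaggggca
Tap1 probe: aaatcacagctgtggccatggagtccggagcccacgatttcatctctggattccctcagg

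Tap1, which pairs with Tap2 in the transporter, read 149 in the Na2S3 culture and 121 in the water culture through the printed probe. The log2 ratio was 0.09 with a spot error of 0.16, smaller than the spot error. Its second probe, at chr20:4797053-4797112, read 39.1 in the Na2S3 culture and 38.3 in the water culture, a log2 ratio of -0.18 with a spot error of 0.33. Both probes were dim and neither ratio exceeded its spot error, so the direction of Tap1 is not settled. The difference of log2 ratios, Tap2 minus Tap1, was -2.21 with a spot error of 0.17.

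Tapasin, which bridges the transporter and the class I molecule, was close to equal. Tapbp, through a probe at chr20:5111712-5111882, read 1203 in the Na2S3 culture and 1107 in the water culture, a log2 ratio of -0.09 with a spot error of 0.076. The B2m probe, at chr3:108933795-108933854, read 41694 in the Na2S3 culture and 43584 in the water culture. The B2m log2 ratio of -0.27 had a spot error of 0.057, and was -0.10 after loess or quantile normalization. B2m is the light chain that every classical class I molecule needs, and its ratio stayed within 1.5-fold.

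The immunoproteasome subunits, which replace constitutive catalytic subunits in the proteasome core, were also close to equal. Psmb8 had 10 spots on a probe designed to a cDNA clone (BC107946) that has no rn4 position in the files. These spots ran from 6009 through a median of 6420 to 7114 in the Na2S3 culture, against 5696, 6164 and 6518 in the water culture. The ranges overlapped, and the scaled log2 ratios of the 10 spots ran from -0.24 to -0.06, with a mean of -0.14 and an SD of 0.055. The second Psmb8 probe, at chr20:4787006-4787484, read 2531 and 2305 in the Na2S3 culture, against 2302 and 2191 in the water culture. That was a log2 ratio of -0.10 with an SD of 0.045 over its 2 spots. Psmb9, at chr20:4806341-4806400, read 3656 in the Na2S3 culture and 3486 in the water culture, a log2 ratio of -0.14 with a spot error of 0.096. The raw signals of both subunits were thus slightly higher on the Na2S3 array, while their scaled ratios were slightly below 0 under each scaling tried.

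Of the activators, Irf1, through a probe at chr10:39227520-39227579, read 9459 in the Na2S3 culture and 8872 in the water culture, with a log2 ratio of -0.12 and a spot error of 0.065. Irf1 binds interferon response elements in promoters of class I pathway genes. Nlrc5, the class I transactivator, read 17.1 in the Na2S3 culture and 4.67 in the water culture. The lowest signal of any probe well above background was 20.5 on the Na2S3 array and 18.3 on the water array, so Nlrc5 gave no usable ratio.

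Bst2 was the other gene that was low. Its probe (NM_198134), at chr16:18698676-18698735 on the minus strand in rn4, read 2257 and 2192 in the Na2S3 culture, against 6472 and 6335 in the water culture. Both Na2S3 spots lay below both water spots. The log2 ratios were -1.73 and -1.74, with an SD of 0.0080 between the spots, a mean of -1.73 and a spot error of 0.068, or 3.32-fold lower. Bst2 is read by this 1 probe alone, so no second probe checks it.

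**Figure D1:**
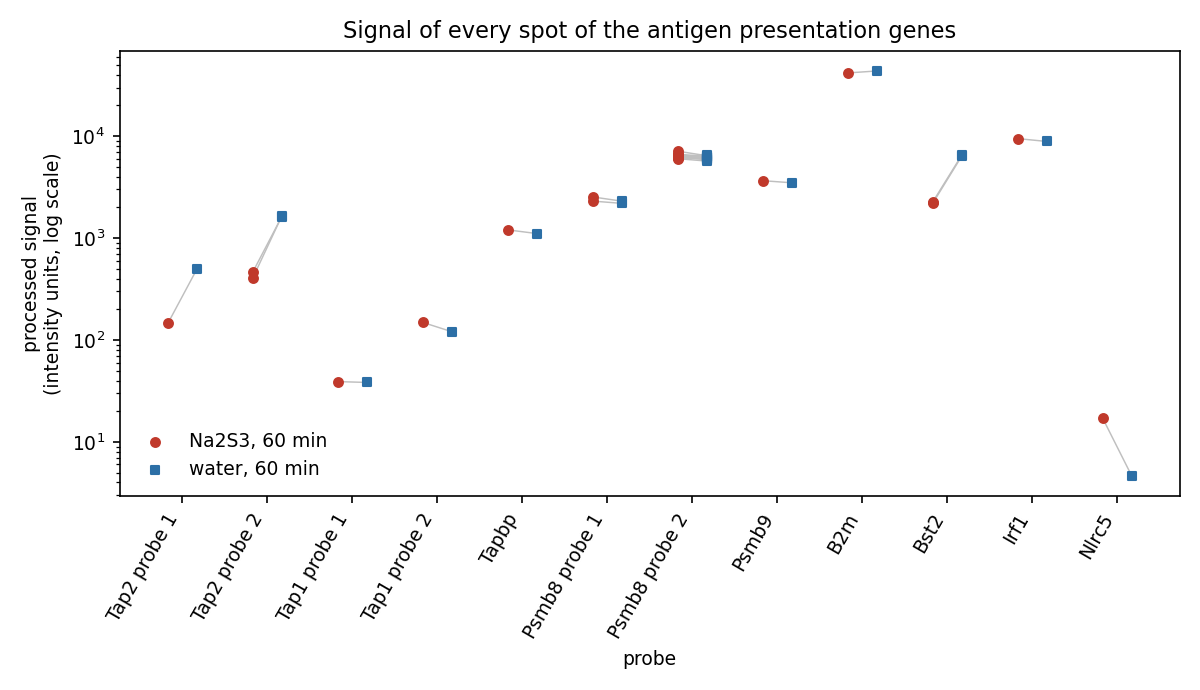
Processed signal of every spot of the 12 probes (log scale, intensity units), with Na2S3 as circles on the left and water as squares on the right of each probe and lines joining the same spot position. The Tap2 and Bst2 spots lie lower on the Na2S3 array, the other measured probes lie near level, and Nlrc5 lies at the dim end.

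The log2 ratios of Tap2 and Bst2 were set beside those of the rest of the set. Since both were chosen for being low, a gap was given in advance and only its size is described. The difference of log2 ratios, Tap2 minus Psmb8, was -1.97 with a spot error of 0.065, and Tap2 minus B2m was -1.84 with a spot error of 0.081. Both errors rest on the spread expected at the signal, which the Tap2 spots exceeded. Bst2 minus Psmb8 was -1.59 with a spot error of 0.074, and Bst2 minus Irf1 was -1.62 with a spot error of 0.094. The other 6 measured genes spanned log2 ratios of -0.27 to 0.09, with a median of -0.13. These differences describe these arrays and give no estimate of how they would vary between cultures.

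**Figure D2:**
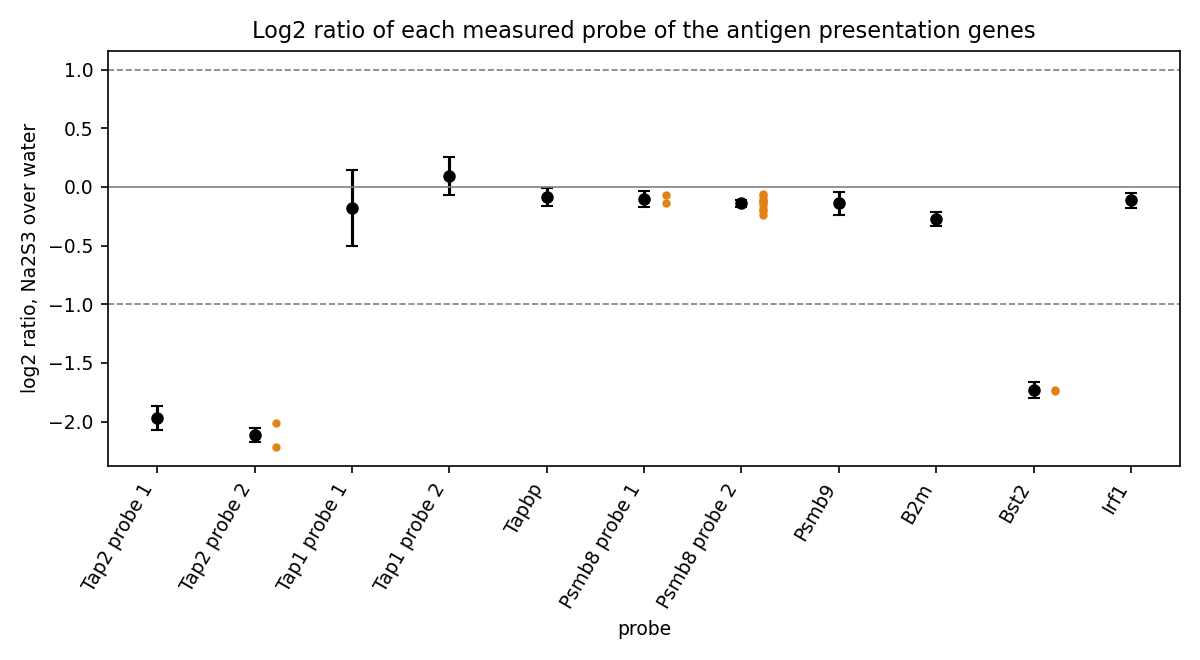
Log2 ratio (Na2S3 over water) of each of the 11 measured probes, with black points for probe means, bars for the spot error on either side, small orange points for repeat spots and dashed lines at 2-fold. The Tap2 probes at -1.97 and -2.11 and the Bst2 probe at -1.73 lie below the lower dashed line, and all other probes lie between -0.27 and 0.09.

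Log2 ratios of the spots around those of Tap2 and Bst2 are given as a description, and a cause in the slide was not tested. Spots within 5 rows and 5 columns of the 3 Tap2 spots had median log2 ratios of -0.04, -0.11 and -0.03, over 63, 61 and 62 spots. Around the 2 Bst2 spots the medians were -0.08 over 61 spots and -0.04 over 64 spots. None of the Tap2 or Bst2 spots was marked as an outlier or as saturated on either array. The authors' deposited value table comes from these same arrays. There the Tap2 probes were at 406 and 137 in the Na2S3 culture, against 1754 and 531 in the water culture. Bst2 was at 2087 in the Na2S3 culture and 6719 in the water culture. Those values give log2 ratios of -2.11 and -1.96 for Tap2 and -1.69 for Bst2.

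Within the ranking of all measured genes, 7 had a log2 ratio as low as that of Tap2 or lower, Tap2 included, and 17 had one as low as that of Bst2. Among the 1626 genes within 0.5 of Tap2 in mean log2 signal, 2 were as low, counting Tap2. Among the 1405 genes that close to Bst2 in signal, 1 was as low, which was Bst2 itself. Since Tap2 and Bst2 were chosen for being low, these ranks only place them.

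Tap2 lies among other genes of the class I pathway in the MHC region of chromosome 20. In the gene order of the GRCr8 assembly it stands between RT1-DOb, a class II gene, and Psmb8, followed by Tap1 and Psmb9. Within 250 kb of the Tap2 probes in rn4, 21 of 37 probes were measured on both arrays. The 19 that do not read Tap2 belong to 15 genes, and none was at least 2-fold lower or at least 2-fold higher. Over all measured genes the shares were 0.62% lower and 0.942% higher, so none among 19 probes is near the general share. Their log2 ratios ran from -0.67 (RT1-DMb) to 0.64 (Col11a2), with a median of -0.14.

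The nearest measured neighbours were the Psmb8 probe 16.6 kb from the Tap2 probes, the Tap1 probes at 23.3 and 26.4 kb, and the Psmb9 probe at 35.7 kb, all with the ratios given above. RT1-DMb, a chain of the class II peptide exchange factor, read 25.4 in the Na2S3 culture and 35.1 in the water culture at 59.7 kb, a log2 ratio of -0.67. Its signal lies in the dimmest range, where all signals below 64 were pooled for a spot SD of 0.33. Its partner RT1-DMa, at 73.7 kb, read 178 in the Na2S3 culture and 177 in the water culture, a log2 ratio of -0.20. The locus LOC103694376, at 78.0 kb, read 75.04 in the Na2S3 culture and 99.5 in the water culture, a log2 ratio of -0.61. The Brd2 probes, for a chromatin reader of acetylated histones, had log2 ratios of -0.18 at 94.2 kb and -0.12 at 100.1 kb. On the other side of Tap2, RT1-Db1, a class II beta chain, had a log2 ratio of -0.18. Tap2 was chosen for being low, so nothing is read from its distance to these neighbours.

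**Figure D3:**
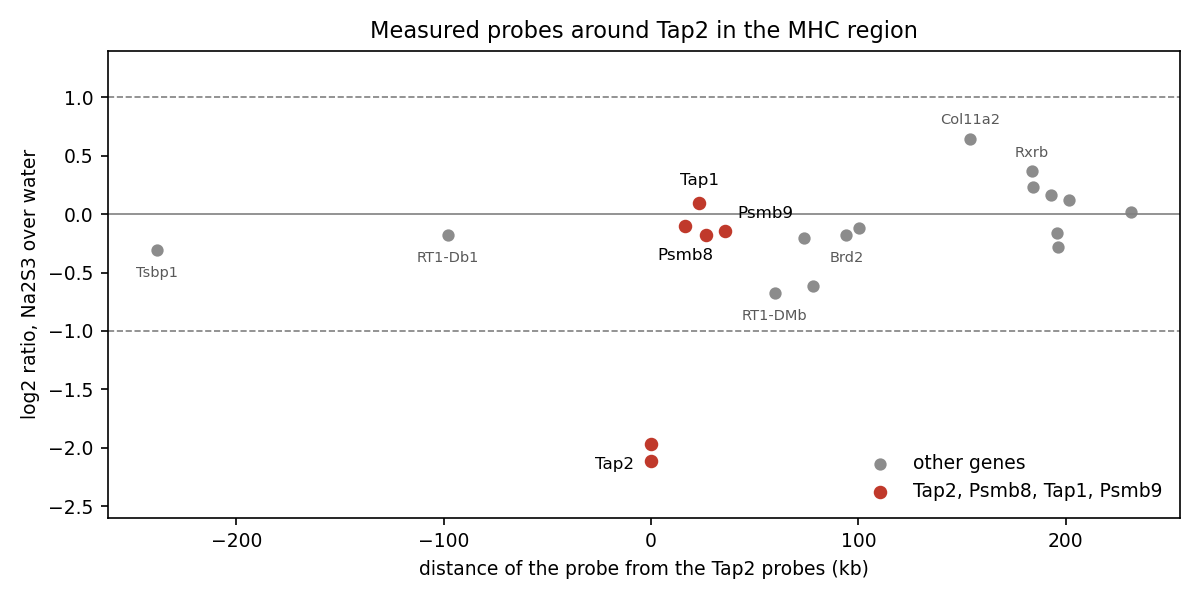
Log2 ratio (Na2S3 over water) of each of the 21 measured probes within 250 kb of the Tap2 probes, against distance from them in kb. Tap2, Psmb8, Tap1 and Psmb9 are in red, other genes are in grey, and dashed lines mark 2-fold. The 2 Tap2 probes lie near -2 and the 19 other probes lie between -0.67 and 0.64.

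The start regions of these genes were searched because interferon induces the pathway through a known element, and the letters are shown for the 6 genes that hold its core. The search covered 250 bases before to 50 bases after each RefSeq gene start in the GRCr8 assembly, on both strands, for the core GAAANNGAAA. It was found in 6 of the 8 promoters of the set that the table holds, those of Tap2, Bst2, Tapbp, Psmb8, Tap1 and B2m, and in 1312 of 33469 promoters (3.92%) overall. Irf1 and Psmb9 had no match to these letters in this window, and the Nlrc5 promoter was not analysed here. Windows of 60 bases are printed in the direction of the gene, with the core in capitals, or its reverse complement for Psmb8 and Tap1. They lie at chr20:4652303-4652362 for Tap2, chr16:18255061-18255120 for Bst2, chr20:4967866-4967925 for Tapbp, chr20:4657012-4657071 for Psmb8, chr20:4668630-4668689 for Tap1 and chr3:129549155-129549214 for B2m. The B2m gene runs on the plus strand and the other 5 on the minus strand.
Tap2 promoter: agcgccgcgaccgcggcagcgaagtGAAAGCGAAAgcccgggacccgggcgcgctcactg
Bst2 promoter: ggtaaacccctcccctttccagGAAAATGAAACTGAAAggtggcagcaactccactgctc
Tapbp promoter: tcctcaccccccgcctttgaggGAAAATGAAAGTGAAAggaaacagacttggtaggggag
Psmb8 promoter: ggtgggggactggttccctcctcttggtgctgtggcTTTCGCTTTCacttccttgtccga
Tap1 promoter: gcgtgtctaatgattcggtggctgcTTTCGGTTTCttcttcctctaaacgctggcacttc
B2m promoter: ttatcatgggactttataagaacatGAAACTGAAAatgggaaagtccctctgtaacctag

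The core was present in Tap2 and Bst2 and also in Tapbp, Psmb8, Tap1 and B2m. Whether it was in use in these cultures was not tested. In Tap2 it spans bases -41 to -32, counted back from the gene start. Bst2 holds 2 overlapping copies, at -131 to -122 and -125 to -116, and Tapbp likewise holds overlapping copies at -26 to -17 and -20 to -11. The Bst2 and Tapbp promoters share the same first copy, GAAAATGAAA, and a link of these letters to either ratio was not tested. In Tap1 the core spans -121 to -112, in B2m -150 to -141, and in Psmb8 it crosses the gene start, from -4 to 6.

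A pair of other short motifs was searched in the same windows. The NF-kB site GGGACTTTCC, a binding site of an inflammatory transcription factor, was found in 2 of the 8 promoters, at -55 to -46 in Tap1 and at -137 to -128 on the minus strand in B2m, and in 37 of 33469 promoters (0.111%). The antioxidant response core TGACNNNGC, which binds the stress factor Nrf2, was found in 1 of the 8, that of Tapbp, and in 4038 of all promoters (12.1%). Neither motif was found in the Tap2 or Bst2 windows, and these letter matches are a description of sequence only.

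In the wider class I loading pathway, 11 of 12 listed genes were within 1.5-fold, as were 12229 of all 13062 measured genes. All 12 listed genes of assembly and loading were measured, 0 were at least 2-fold lower and 1 was at least 2-fold higher, with a median log2 ratio of -0.08. The shares over all measured genes were 0.62% lower and 0.942% higher, and nothing is read from these counts. Tapbpl, the tapasin-related peptide editor, read 356 in the Na2S3 culture and 122 in the water culture from 1 spot, a log2 ratio of 1.33 with a spot error of 0.16, or 2.52-fold higher. With normexp background correction its log2 ratio was 0.999, just short of 2-fold. The chaperone Calr read 15599 in the Na2S3 culture and 11192 in the water culture, a log2 ratio of 0.27. Sec61a1, a channel subunit of the endoplasmic reticulum membrane, was at -0.27 and Psme2, a proteasome activator subunit, at -0.24 on the log2 ratio scale. Psmb10, the third immunoproteasome subunit, named here as the partner of Psmb8 and Psmb9, had a log2 ratio of -0.16.

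Probes for the class I heavy chains, the molecules that display the peptides, showed no gene past 2-fold. Of 38 genes with an RT1 name outside class II, 27 were measured, 0 were at least 2-fold lower, 0 were at least 2-fold higher and 26 were within 1.5-fold. The shares over all measured genes were 0.62% lower and 0.942% higher, with 12229 of 13062 within 1.5-fold. The heavy chain counts are near those shares. Heavy chain log2 ratios ran from -0.67 to 0.12 with a median of -0.08. RT1-CE11 had the lowest ratio, reading 50.6 in the Na2S3 culture and 69.8 in the water culture, a log2 ratio of -0.67 with a spot error of 0.33. RT1-CE10 followed with a log2 ratio of -0.50 and a spot error of 0.19, then RT1-N3 at -0.26 and RT1-N2 at -0.19. Probes for these near-identical genes can bind each other's transcripts, so values of single heavy chain genes are uncertain. A further 2 genes were above background on 1 array alone, RT1-CE6 at least 1.44-fold higher in the Na2S3 culture and RT1-M10-1 at least 1.28-fold lower. Each bound sets the bright signal against the lowest level that probes well above background had on the other array.

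The 14 constitutive proteasome subunits, which make up the standard core particle, were all measured and all within 1.5-fold. Of them 0 were at least 2-fold lower or higher, near the shares of 0.62% lower and 0.942% higher over all measured genes. As many as 12229 of all 13062 measured genes were within 1.5-fold. The median log2 ratio of the subunits was -0.13. Psma3 had the lowest log2 ratio at -0.39, followed by Psma6 at -0.22, Psmb1 at -0.17 and Psmb3 at -0.16. The immunoproteasome subunits Psmb8 and Psmb9, both at -0.14, lay inside this range.

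Of the 24 listed genes of interferon signalling, 20 were measured, 0 were at least 2-fold lower and 0 at least 2-fold higher, with a median log2 ratio of 0.03. Such counts are near the shares over all measured genes, 0.62% lower and 0.942% higher. Socs3, a feedback inhibitor of cytokine receptors, had the lowest ratio of the list. Its probe with 10 spots averaged 556 in the Na2S3 culture and 912 in the water culture, a log2 ratio of -0.92 with a spot error of 0.026, and its other probe was at -0.55. Irf9, part of the factor complex that type I interferon activates, had log2 ratios of -0.44 and -0.35 through its 2 probes. The type I interferon receptor chain Ifnar2 was at 0.41 and the transcription factor Irf3 at 0.27. None of these passed 2-fold, and 4 genes were above background on neither array.

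Bst2 belongs to the interferon-stimulated genes, and the other genes of that class were read beside it. Of 45 listed genes with a probe, 34 were measured, 0 were at least 2-fold lower, 0 were at least 2-fold higher and 30 were within 1.5-fold. Among all 13062 measured genes, 0.62% were at least 2-fold lower, 0.942% at least 2-fold higher and 12229 within 1.5-fold. A count of 0 among 34 genes is near the general share. The median log2 ratio of the list was -0.10. Rsad2 (viperin), an antiviral enzyme, read 29.1 in the Na2S3 culture and 47.2 in the water culture, a log2 ratio of -0.90 with a spot error of 0.33. The interferon-induced GTPases Irgm and Gbp5 were at -0.64 and -0.63. In the other direction, the chemokine Cxcl10 read 347 in the Na2S3 culture and 175 in the water culture, a log2 ratio of 0.78 with a spot error of 0.16. Another 2 genes were above background on 1 array alone, Dhx58 at least 1.70-fold higher and Gbp4 at least 1.78-fold lower in the Na2S3 culture, and 9 were above on neither.

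MHC class II genes, which professional antigen-presenting cells express, were mostly dark. Of 11 genes with a probe, the invariant chain Cd74 included, 8 were above background on neither array. The 3 measured, RT1-DMb, RT1-DMa and RT1-Db1, had log2 ratios of -0.67, -0.20 and -0.18.

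**Figure D4:**
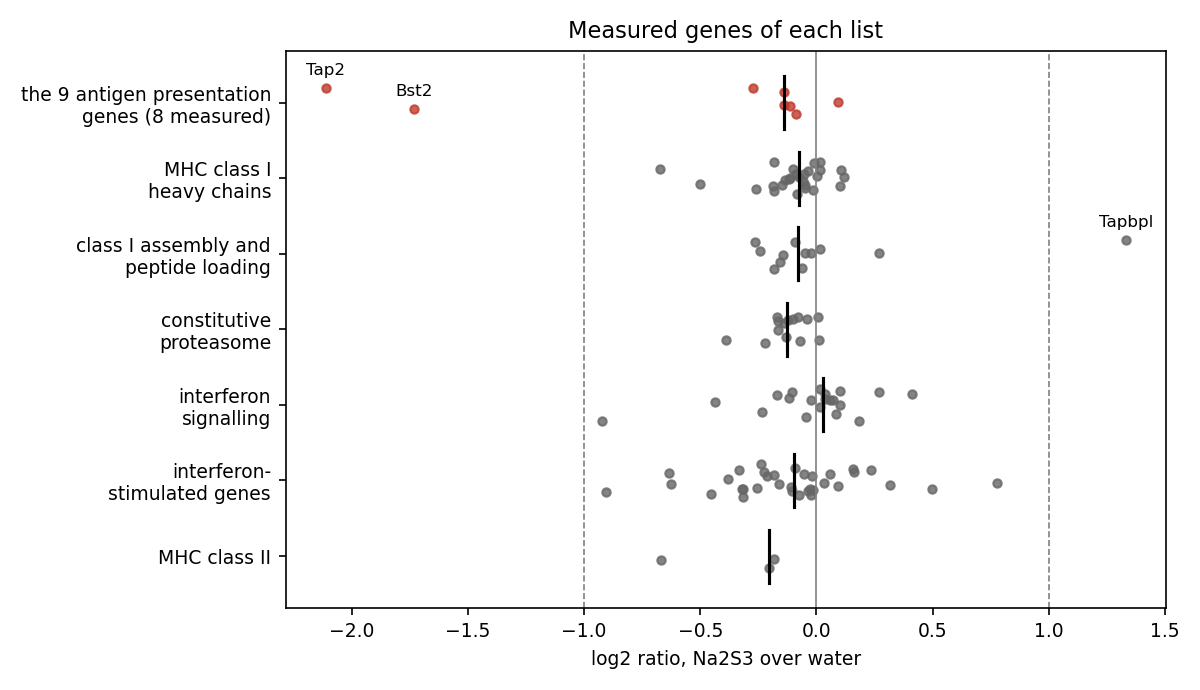
Log2 ratio (Na2S3 over water) of the measured genes of each list, 1 point per gene with vertical jitter, a black bar at the median of each list and dashed lines at 2-fold. Tap2 and Bst2 lie below the lower 2-fold line, Tapbpl lies above the upper one, and all other listed genes lie between them.

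The cell line label was checked against cell type markers. Of 11 epithelial markers with a probe 6 were measured. Krt8 read 18283 in the Na2S3 culture and 15892 in the water culture, Cdh1 (E-cadherin) 16264 in the Na2S3 culture and 14703 in the water culture, and the intestinal factor Cdx1 2051 in the Na2S3 culture and 2086 in the water culture. Krt18, Krt19 and Ascl2 were dim, between 158 and 251 in the Na2S3 culture and between 142 and 215 in the water culture, while Krt20, Epcam, Vil1, Cdx2 and Lgr5 were above background on neither array. Of 8 fibroblast markers 7 were measured. Col3a1, S100a4, Col1a1, Vim and Col1a2 ran from 29022 to 108685 in the Na2S3 culture and from 33764 to 91981 in the water culture, and Thy1 and Acta2 were dim, so genes of both classes were read in these cultures. Of 10 immune markers 4 were measured. Cd14 read 3218 in the Na2S3 culture and 2656 in the water culture. Cd4 and Cd68 were dim, at 96.3 and 84.8 in the Na2S3 culture and 82.6 and 88.5 in the water culture. The pan-leukocyte marker Ptprc was near the detection limit at 27.1 in the Na2S3 culture and 29.2 in the water culture. Of 5 endothelial markers 3 were measured. Vwf read 2253 in the Na2S3 culture and 2485 in the water culture, and Tek 896 and 839. Cdh5 was dim, at 48.7 and 42.6. The median log2 ratios of these lists were -0.06 for epithelial, -0.27 for fibroblast, -0.13 for immune and -0.11 for endothelial markers, with 0 genes past 2-fold in any of them. That is near the shares over all measured genes, 0.62% lower and 0.942% higher. The medians are given for the 75th percentile scaling alone. B2m, as bright as these fibroblast genes, moved from -0.27 to -0.10 after loess or quantile normalization.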

How the data were processed

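RNA of 1 IEC6 culture treated with Na2S3 and of 1 treated with water was labelled with Cy3 and hybridised to 1 Agilent array each, per the labels' protocols. Per the file headers, the arrays share 1 slide and 1 day of scanning. The deposited scanner files hold linear spot intensity from Agilent Feature Extraction 10.7.1.1, background-subtracted and detrended, per the file headers, with a p-value of each spot against background, per the file headers. Version 9.5.1.1 is given in the submitters' processing notes. The deposited value table holds linear intensity, and its columns share a median of 19.3.

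Outlier spots were left out (390 on the Na2S3 array and 448 on the water array), and 0 spots were saturated. From the deposited intensity, log2 signals of repeat spots were averaged per probe, and the 75th percentile of each array was subtracted. A probe counted as well above background when more than 50% of its spots carried that mark, as 49.0% of probes did on the Na2S3 array and 49.5% on the water array. A gene is its brightest probe above background on both arrays. The spot error is the SD of the log2 ratio between repeat spots at that signal, divided by the square root of the number of spots.

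Names came through RefSeq accessions (GRCr8 table) for 21109 probes and from the file for 14743, and 9746 have none. Promoter sequences are those of RefSeq (GRCr8), probe sequences and rn4 coordinates those of the array file. With 1 array per group no test was run, and genes past 2-fold (log2 ratio of 1) either way were counted. The number of arrays limits the precision. Members and lists were chosen with earlier results of these data known. Named genes are all members, up to 4 measured genes per list with the largest absolute log2 ratio, the nearest neighbours of Tap2 and the 5 genes nearest to it in ratio. There were 9 alternative settings. Normexp used limma 3.58.1 in R 4.3.3, and quantile normalization and the rest used Python 3.11.15. Steps were tested on simulated data.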

Additional observations from a re-analysis of the deposited data

How the results depend on the processing

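Under all 9 alternatives Tap2 and Bst2 remained the members at least 2-fold lower, with log2 ratios of -2.11 to -1.95 for Tap2 and -1.73 to -1.69 for Bst2. Tap2 was -1.95 with normexp and -2.04 as the median of its probes. Ranges of the other members were -0.27 to -0.10 for B2m, -0.12 to -0.03 for Irf1, -0.14 to -0.08 for Psmb8, -0.14 to -0.10 for Psmb9, -0.09 to -0.04 for Tapbp and -0.04 to 0.14 for Tap1, whose sign is not settled. With normexp, 0 genes of class I assembly and loading were at least 2-fold higher, Tapbpl being at 0.999, and the cause was not tested. With no filter on dim probes, 1 member (Nlrc5) was higher, 2 interferon signalling genes were lower, and 4 interferon-stimulated genes were higher and 2 lower, since genes below background entered.

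Over all genes, 81 were lower and 123 higher. Normexp, whose offset of 50 shrinks the ratios of dim probes, gave 31 lower and 61 higher. No filter on dim probes gave 1545 lower and 1062 higher of 27235 genes, so 40.7% of calls were higher, against 60.3%. No paired analysis was possible because each group has 1 sample. With 1 array per group, no value here shows how far cultures vary, and below about 64 intensity units the spot SD of 0.33 leaves ratios such as those of Rsad2, Gbp5 and RT1-CE11 loosely fixed.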

Other observations

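The genes whose log2 ratio was nearest that of Tap2 were sought among the 3818 measured genes with a symbol that were read by more than 1 spot. Of these, 13 were at least 2-fold lower in the Na2S3 culture, Tap2 and Bst2 included, and 3 were as low as Bst2 or lower, namely Tap2, Ing3 and Bst2 itself. Ing3, a reader of histone methylation in an acetyltransferase complex, was nearest, at 348 in the Na2S3 culture and 1303 in the water culture. Its log2 ratio was -2.11 through 1 probe but 0.34 through the other, so its probes disagree in direction.

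Bst2 came next at -1.73, then the secreted protease Adamts1, averaging 79.8 in the Na2S3 culture and 216 in the water culture, a log2 ratio of -1.64 over 10 spots. The histone chaperone gene Hira had a log2 ratio of -1.42 through 1 probe and -0.21 through the other. The homeobox gene Hlx averaged 313 in the Na2S3 culture and 706 in the water culture over 2 spots, a log2 ratio of -1.38. With 1 array per group this likeness is a single ratio, with the error of repeat spots alone.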
